A study of Mus musculus with 12 samples.

Results

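The genes described here are the interleukins, the secreted signalling proteins of leukocytes and epithelia, and the receptors, binding proteins and decoys that receive them. They were all genes whose name on the array begins with Il and a digit, except Il2rb, which was not analysed here. The rule gave 80 genes, on 120 probes, of 27962 genes and other features named on the arrays. It is a rule on names, so it also takes in Il4i1, an enzyme that breaks down amino acids, and Il16, and it leaves out interleukin genes with other names. Under current nomenclature Il8ra and Il8rb are the chemokine receptors Cxcr1 and Cxcr2, Il28 is Ifnl3, Il28ra is Ifnlr1, and Il1f9 belongs to the interleukin 36 group.

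Expression was measured on 12 two-colour arrays that compared 6 RNAs of NR-S1, a transplantable mouse squamous cell carcinoma that spreads from the hind leg to the lung. Tumours grew in male C3H/HeMsNrs mice, whose age the labels do not give, and the carcinoma cells were isolated by laser microdissection. The 3 primary RNAs came from tumours taken 1 week after they reached 7.5 mm: unirradiated, after 8 Gy of gamma rays, or after 5 Gy of carbon ions. The 3 metastasis RNAs came from lungs sampled at 2 weeks, in mice whose leg tumour had had the same 3 treatments. Radiation thus fell on the leg tumour, primaries and metastases came from different mice at different times, and organ and time cannot be told apart. The labels give 1 RNA per group, marked clone 1 throughout, and do not say how many mice went into it.

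Each pair of RNAs was hybridised with the dyes both ways, on 2 arrays. A log2 ratio below is the mean of both orientations with their SD (n = 2 arrays of the same RNAs), which covers array and dye error and not the spread between animals. No test over animals was possible. A gene is said to have been higher or lower, or to have risen or fallen, where the difference was at least 2-fold in the same direction in both orientations, among genes whose probe stood well above background in one or both of the RNAs on each array. Other genes are given by value alone. Signal levels are normalised log2 signals of a probe and are compared between RNAs for the same gene, never between genes.

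Interleukins act by bringing receptor chains together on the surface of a target cell. Members of the interleukin 1 family signal through MyD88 and NF-kB, and are held in check by a receptor antagonist (Il1rn), a decoy receptor (Il1r2) and a soluble binding protein for interleukin 18 (Il18bp). Most other interleukins use JAK kinases and STAT factors through shared chains, such as the common gamma chain (Il2rg) and gp130 (Il6st). In squamous epithelium, interleukin 1 alpha and the interleukin 36 group are made by the keratinocytes themselves, while many receptors are carried mainly by infiltrating leukocytes.

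Of the 80 genes, 39 were well above background on all arrays and 17 on none. The 17 were Il2, Il5, Il9, Il17a, Il17b, Il17c, Il20, Il21, Il22, Il25, Il31, Il1f5, Il1f6, Il1f10, Il12rb2, Il23r and Il31ra. A further 7 (Il3, Il4, Il28, Il9r, Il13ra2, Il22ra1 and Il1rapl2) were above background on some array but could be measured in no comparison, which leaves 56 genes. Of these, 25 were higher or lower in at least 1 of the 9 comparisons, and 9 of the 25 were higher in one comparison and lower in another. The comparisons share RNAs, so a single RNA that stands apart can give calls in both directions. The same counts were not made over all genes.

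**Figure D1:**
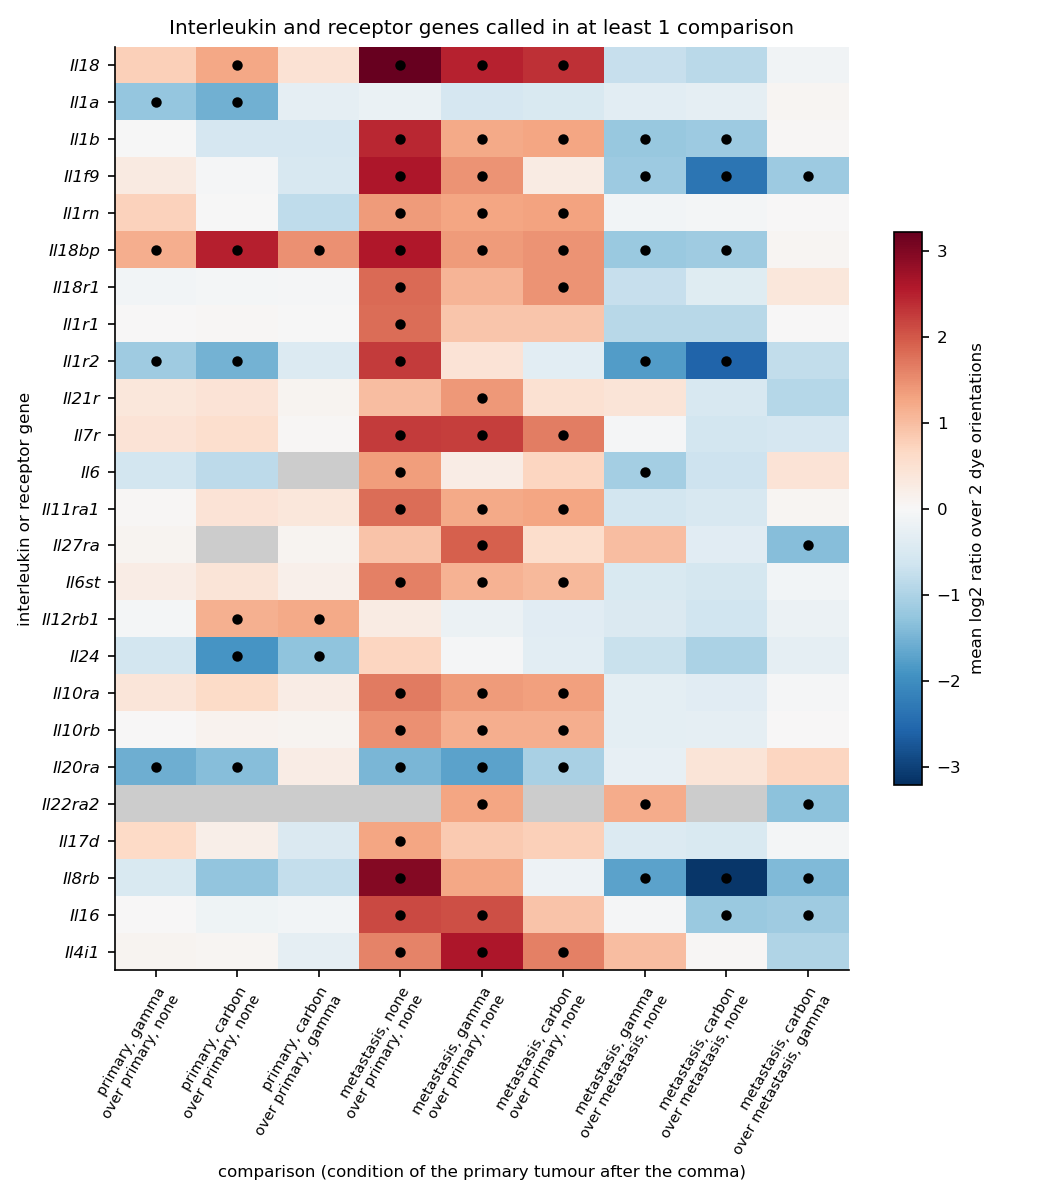
Heat map of the mean log2 ratio over the dye orientations for the 25 genes called in at least 1 of 9 comparisons, with genes ordered by role and comparisons in columns; red is higher in the first-named RNA, blue lower, grey not measured, and a black dot marks a call. Dots in the 3 metastasis over primary columns lie on red except for Il20ra, and dots in the columns that set irradiated groups' metastases against the unirradiated one lie on blue except for Il22ra2.

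The first comparison asked which interleukin genes differed in the leg tumour 1 week after gamma rays. Of 47 measured genes, 1 rose and 3 fell, against 2.22% of all measured genes that rose and 1.25% that fell. Il18bp rose by 1.17 ± 0.21, while the keratinocyte cytokine Il1a fell by 1.25 ± 0.19, the decoy receptor Il1r2 fell by 1.15 ± 0.02 and Il20ra, a chain of the receptor for interleukins 20 and 24, fell by 1.56 ± 0.09. The median of the measured members was 0.05 and that of all genes 0.02. With the scanner's own processed log ratio the split was 3 higher and 5 lower, with no background offset 2 and 3, and with all probes of a gene averaged 0 and 3. The shares of all measured genes moved too, to 3.87% and 2.69%, 3.13% and 2.06%, and 1.73% and 1.05% in that order.

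After carbon ions 3 of 46 measured genes rose and 4 fell, against 3.88% and 1.07% of all measured genes. Il18bp rose by 2.51 ± 0.34, Il18 by 1.25 ± 0.18 and Il12rb1, the shared chain of the interleukin 12 and 23 receptors, by 1.14 ± 0.05. Il24 fell by 1.90 ± 0.26, Il1a by 1.54 ± 0.28, Il1r2 by 1.53 ± 0.00 and Il20ra by 1.38 ± 0.01. The members' median was 0.07 against 0.02 for all genes. The scanner's processed log ratio gave 7 higher and 10 lower, and the same data without a background offset gave 7 and 9. Of all measured genes these settings gave 5.99% and 2.9%, and 5.3% and 1.85%.

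Il18bp encodes the soluble protein that captures interleukin 18, and its transcription is known to answer to interferon gamma. Its log2 ratios to the unirradiated primary, with the named RNA first in Cy5 and then in Cy3, were 1.31 and 1.02 in the gamma primary and 2.75 and 2.27 in the carbon primary. They were 2.76 and 2.41 in the unirradiated metastasis, 1.55 and 1.22 in the gamma-group metastasis and 1.66 and 1.23 in the carbon-group metastasis. Il18bp was thus the only member higher than in the unirradiated primary in all 5 other RNAs, and in both orientations of each. Its level was 7.39 to 7.99 over the 10 arrays of the unirradiated primary, below every array of the other RNAs, whose medians ran from 8.83 in the gamma-group metastasis to 10.37 in the carbon primary. A second, dimmer probe gave 0.84 in the gamma primary, 1.86 in the carbon primary, 1.80 in the unirradiated metastasis, 0.74 in the gamma group and 0.89 in the carbon group, so the 2-fold differences in the gamma primary and in the gamma-group and carbon-group metastases rest on the brighter probe. All 14 interferon-response markers measured beside it were higher in the same 5 RNAs, with medians of 2.19 in the gamma primary, 3.27 in the carbon primary and 2.56 to 3.05 in metastases. Their part in the Il18bp result was not tested.

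The 250 bases upstream of the annotated start of Il18bp are shown because it was the only member that rose in both irradiated primaries. Of the 10 genes higher in all 3 metastases 8 were in the promoter table, and Il7r is shown because it was the only one of these 8 that held either motif searched for. The sequences are from RefSeq (GRCm38.p6), where Il18bp lies at chr7:102018233-102018482 and Il7r at chr15:9529877-9530126, both on the minus strand and written from 5′ to 3′ of the gene. Capitals mark a gamma-activated site (TTCNNNGAA), the motif of STAT dimers.
Il18bp: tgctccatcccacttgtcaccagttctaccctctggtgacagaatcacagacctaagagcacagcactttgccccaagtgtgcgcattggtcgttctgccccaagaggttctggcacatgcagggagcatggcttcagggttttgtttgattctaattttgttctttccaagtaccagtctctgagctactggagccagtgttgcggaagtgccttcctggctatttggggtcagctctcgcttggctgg
Il7r: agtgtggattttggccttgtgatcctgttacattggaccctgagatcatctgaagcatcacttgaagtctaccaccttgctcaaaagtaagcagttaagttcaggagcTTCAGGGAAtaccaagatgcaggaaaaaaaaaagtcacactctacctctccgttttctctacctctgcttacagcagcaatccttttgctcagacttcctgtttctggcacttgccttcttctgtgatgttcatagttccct
Neither the core of the interferon-stimulated response element (GAAANNGAA) nor TTCNNNGAA occurred on either strand of the Il18bp window, and the Il7r window held 1 TTCNNNGAA that begins 142 bases before the start. TTCNNNGAA reads the same on both strands, and a position was counted once. Of 32851 windows of that length in the table, 7.13% held GAAANNGAA and 7.02% TTCNNNGAA. Of the 80 members 65 were in the table, and 4 of them held GAAANNGAA (Il15ra, Il19, Il4 and Il8ra) and 8 TTCNNNGAA. These are genes with a match at any start site, over 79 windows, so they do not compare directly with the shares of windows. A match is a description of letters and not a bound site.

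Il18, the ligand of that binding protein, had log2 ratios of 0.95 and 0.57 in the gamma primary, 1.37 and 1.12 in the carbon primary, 3.30 and 3.14 in the unirradiated metastasis, 2.56 and 2.38 in the gamma group and 2.46 and 2.23 in the carbon group. All 10 values were above 0, and those of metastases lay above those of both irradiated primaries. The mean of 3.22 ± 0.12 in the unirradiated metastasis was the widest rise of any member. Of the interleukin 18 receptor chains, Il18r1 had ratios of 0.19 and -0.35 in the gamma primary, 0.09 and -0.20 in the carbon primary, 2.10 and 1.57 in the unirradiated metastasis, 1.35 and 0.83 in the gamma group and 1.77 and 1.12 in the carbon group. It rose in the unirradiated metastasis and the carbon group. In the gamma group it stayed uncalled at 1.09 ± 0.37, because 1 orientation lay under 2-fold. The accessory chain Il18rap was called nowhere and had -0.41 ± 0.12 in the gamma primary, -0.92 ± 0.13 in the carbon primary and 0.69 ± 0.15 in the unirradiated metastasis.

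Il1a fell in both irradiated primaries, from a level of 8.37 to 8.76 over the arrays of the unirradiated primary to medians of 7.40 after gamma rays and 7.08 after carbon ions. In metastases it had -0.21 ± 0.26, -0.55 ± 0.14 and -0.50 ± 0.19 in the unirradiated, gamma and carbon groups and was called in none. The decoy receptor Il1r2 had ratios of -1.16 and -1.14 in the gamma primary, -1.53 and -1.53 in the carbon primary, 2.23 and 2.25 in the unirradiated metastasis, 0.42 and 0.48 in the gamma group and -0.42 and -0.28 in the carbon group. It was therefore lower than the unirradiated primary in both irradiated primaries and higher in the unirradiated metastasis, with orientations that differed by little in each. The signalling receptor Il1r1, by contrast, had 0.17 and -0.16 in the gamma primary and 0.20 and -0.09 in the carbon primary. It had 1.91 and 1.68 in the unirradiated metastasis, 1.04 and 0.75 in the gamma group and 1.04 and 0.76 in the carbon group, and was called higher in the first alone. The neutrophil markers were lower in the carbon primary in 3 of 5 measured (median -1.37) and in the gamma primary in 0 of 5 (median -0.16), while Ltf, lactoferrin, which airway glands also make, rose in both. Mmp8, Ngp and Camp were not above background in either. Their summed signal was 18600 to 21300 in the carbon primary, 41100 to 46400 in the gamma primary and 30000 to 35800 in the unirradiated primary on arrays shared with primaries. Their part in the falls of Il1r2, Il1a, Il24 and Il20ra was not tested. The accessory chain Il1rap was called nowhere, at -0.20 ± 0.01, -0.65 ± 0.08 and 0.53 ± 0.09 in the gamma primary, the carbon primary and the unirradiated metastasis.

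Il1b, the leukocyte form of interleukin 1, had ratios of 0.03 and -0.05 in the gamma primary, -0.51 and -0.55 in the carbon primary, 2.46 and 2.41 in the unirradiated metastasis, 1.27 and 1.18 in the gamma group and 1.32 and 1.21 in the carbon group. It rose in all 3 metastases and in neither irradiated primary. The antagonist Il1rn rose in the metastases by 1.36 ± 0.12, 1.28 ± 0.04 and 1.29 ± 0.01 in the unirradiated, gamma and carbon groups, and had 0.75 ± 0.05 in the gamma primary and -0.02 ± 0.13 in the carbon primary. A dimmer probe of Il1rn gave 0.59, 0.41 and 0.29 in those metastases, under 2-fold. Il1f9 had 0.44 and 0.13 in the gamma primary, 0.05 and -0.15 in the carbon primary, 2.67 and 2.55 in the unirradiated metastasis, 1.57 and 1.31 in the gamma group and 0.30 and 0.21 in the carbon group. It was higher in the metastases of the unirradiated and gamma groups, and its other probe gave 1.13 and 0.57 there. Its receptor chain Il1rl2 was called nowhere and had -0.13 ± 0.35 in the unirradiated metastasis.

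**Figure D2:**
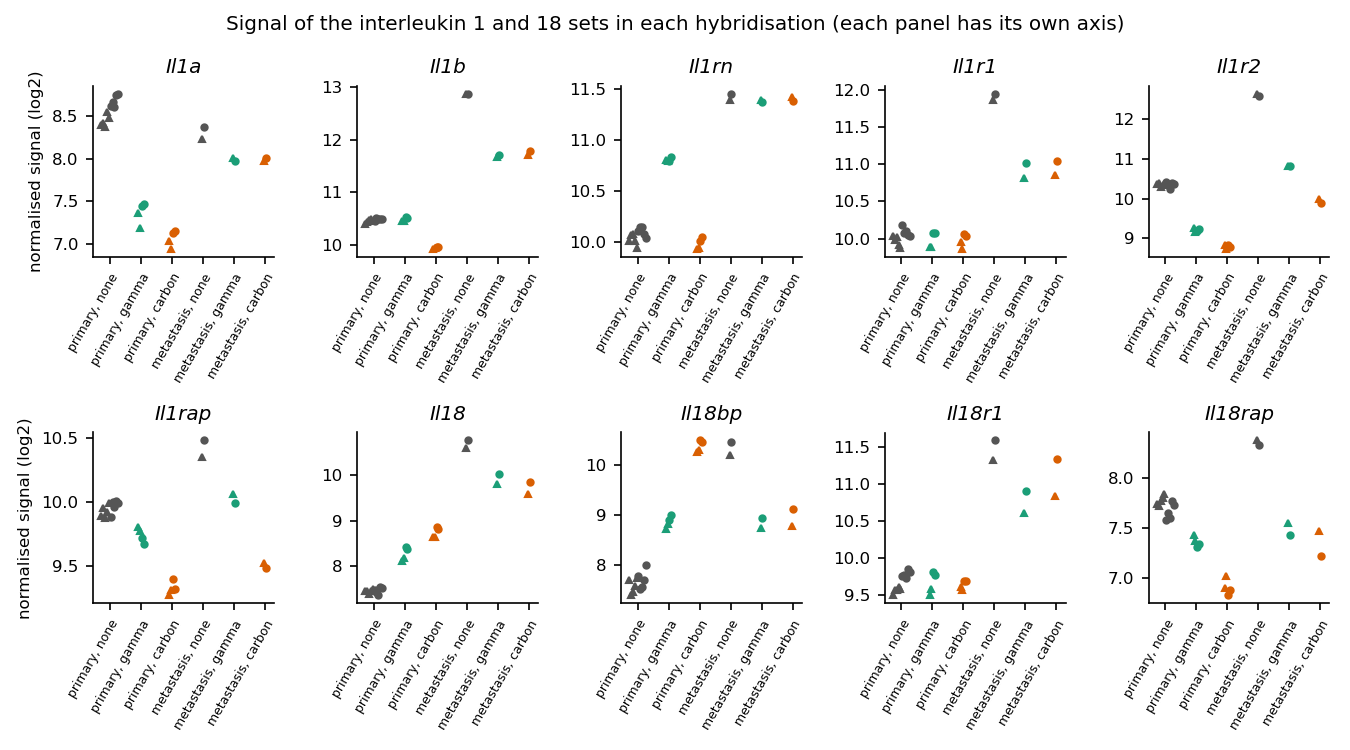
Normalised log2 signal (vertical axis, own scale in each panel) of the interleukin 1 and 18 ligands, binding proteins and receptor chains in the 6 RNAs, 1 point per hybridisation, with circles for Cy5 and triangles for Cy3. Il1r2 is lowest in the irradiated primaries and highest in the unirradiated metastasis, and Il18bp is lowest in the unirradiated primary, where it lay between 7.39 and 7.99.

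Il24, a cytokine of the interleukin 10 family, had ratios of -0.45 and -0.73 in the gamma primary, -1.71 and -2.08 in the carbon primary, 0.79 and 0.57 in the unirradiated metastasis, 0.11 and -0.19 in the gamma group and -0.19 and -0.50 in the carbon group. It was lower after carbon ions alone. Il20ra, a chain of its receptor, was lower than in the unirradiated primary in all 5 other RNAs, and no other member was. Its values were -1.56 ± 0.09 and -1.38 ± 0.01 in the gamma and carbon primaries and -1.46 ± 0.09, -1.73 ± 0.04 and -1.05 ± 0.05 in the unirradiated, gamma-group and carbon-group metastases. Its level was 9.29 to 9.46 over the 10 arrays of the unirradiated primary and its highest median elsewhere was 8.30. The 8 skeletal muscle markers were also lower beside it, all 8 in the gamma primary (median -2.47) and in the metastases (medians -3.94 to -3.89) and 2 of 8 in the carbon primary (median -0.93). Their summed signal was 36500 to 37900 in the unirradiated primary, 6440 to 7530 in the gamma primary, 18500 to 20000 in the carbon primary and 2330 to 2950 in metastases. Their part in the Il20ra result was not tested.

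Carbon ions and gamma rays were also compared on arrays of their own. The carbon primary had 2 of 45 measured genes higher and 1 lower than the gamma primary, against 0.879% and 0.159% of all measured genes. Il18bp was higher by 1.46 ± 0.23, Il12rb1 higher by 1.21 ± 0.04, and Il24 fell by 1.30 ± 0.14. The scanner's processed log ratio gave 2 higher and 2 lower, and a median centring without loess gave none, since 1 orientation then lay under 2-fold. Of all measured genes these settings gave 1.57% and 0.615%, and 0.416% and 0.0661%. Over the 45 genes the difference of the separate ratios to the unirradiated primary departed from the direct ratio by 0.04 in the median and by 0.25 at most. Doses differed between the beams, so values stand side by side as those of 8 Gy and 5 Gy. Il12rb1, which T and NK cells carry, had -0.06 ± 0.12 in the gamma primary and 1.14 ± 0.05 in the carbon primary, and its partner chains Il12rb2 and Il23r were on no array above background. Of the T and NK markers 6 of 10 measured were higher in the carbon primary and 2 of 9 in the gamma primary. Their summed signal was 1110 to 1280 in the unirradiated primary, 1870 to 2180 in the gamma primary and 2760 to 3180 in the carbon primary, with Ncr1 above background in none of the 3 and Cd4 not in the gamma primary. In the direct comparison of carbon ions with gamma rays 0 of 9 measured T and NK markers were higher (median 0.52). The interferon-response markers were higher there in 9 of 14 (median 1.72), with summed signals of 204000 to 243000 in the carbon primary and 54600 to 61500 in the gamma primary. The part of these markers in the Il12rb1 and Il18bp results was not tested.

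Some genes, picked after their values were seen, lay close to the 2-fold line in the carbon primary. Il15, which sustains NK and memory T cells, had 0.89 and 0.85, its receptor chain Il15ra 1.26 and 0.74, Il7 1.09 and 0.66 and the interferon lambda receptor Il28ra 1.04 and 0.65. None was called. In the gamma primary the same genes had means of 0.36, 0.64, 0.59 and 0.57. Second probes of Il15 and Il15ra gave 0.37 and 0.44 in the carbon primary. Also near the line there, and not called, were Il17rb at 0.99, Il8rb at -1.26, Il19 at -0.94 and Il18rap at -0.92. Il23a, a subunit of interleukin 23, had -0.75 ± 0.03 after gamma rays and -0.99 ± 0.01 after carbon ions and was called in neither.

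The next comparison asked how interleukin genes differ between lung metastasis and leg tumour without radiation. Of 52 measured genes 18 were higher and 1 lower than in the unirradiated primary, which is 34.6% and 1.92%, against 10.4% and 1.68% of all measured genes. The members' median was 0.75 and that of all genes 0.05, and 40 of the 52 lay above 0. By role, 4 of 5 interleukin 1 family ligands rose, 4 of 8 of their receptors and binding proteins, 2 of 4 chains of the interleukin 6 receptor group, and none of 5 interleukin 17 receptors or of 4 genes of the interleukin 12 and 23 group. The interleukin 17 receptors ran from -0.21 to 1.02, the highest being Il17ra, whose second probe gave 1.24. All these are bulk values of microdissected tissue, in which fewer cells of a type and less RNA per cell cannot be told apart.

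In the gamma-group metastasis 15 of 56 measured genes were higher and 1 lower, against 8.8% and 1.1% of all measured genes, and the members' median was 0.45 against 0.06. With both RNAs required above background 14 of 46 were higher and 1 lower, against 8.59% and 1.13%. In the carbon-group metastasis 11 of 47 were higher and 1 lower, against 8.19% and 1.02%, with medians of 0.26 and 0.06. The 3 metastases were compared with the same primary RNA, so these counts share it. Genes higher in all 3 were the 10 genes Il18, Il18bp, Il1b, Il1rn, Il7r, Il4i1, Il10ra, Il10rb, Il11ra1 and Il6st, and Il20ra was lower in all 3. The matching count over all genes was not made. Averaging all probes of a gene, including those not above background, left 10 calls in the gamma group. Scaling the arrays to a common spread left 8 in the carbon group. Over all genes the calls went from 1762 to 1469 and from 1511 to 1231 there. Median centring without loess left 12, 8 and 3 calls in the unirradiated, gamma and carbon groups. Over all genes it gave 1485, 1198 and 1040 calls, from 2080, 1762 and 1511.

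Il8rb, the neutrophil receptor for CXC chemokines, had the widest range of the 45 members measured in all 5 comparisons with the unirradiated primary. Its ratios were -0.95 and -0.04 in the gamma primary, -1.63 and -0.89 in the carbon primary, 2.60 and 3.32 in the unirradiated metastasis, 0.76 and 1.71 in the gamma group and -0.95 and 0.60 in the carbon group. It was called higher in the unirradiated metastasis alone, and its orientations stood far apart throughout, on both sides of 0 in the carbon group. The other probe gave 1.43 in the unirradiated metastasis, 0.19 in the gamma group and -0.29 in the carbon group. Its sister receptor Il8ra was called in no comparison, and none of the primary RNAs had it above background.

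Il6, the cytokine of acute inflammation, had ratios of -0.52 and -0.67 in the gamma primary, -0.86 and -0.83 in the carbon primary, 1.48 and 1.20 in the unirradiated metastasis, 0.36 and 0.12 in the gamma group and 0.85 and 0.52 in the carbon group. It rose in the unirradiated metastasis alone, and it was not above background in the carbon primary. Its signalling chain Il6st rose in all 3 metastases by 1.62 ± 0.09, 1.13 ± 0.10 and 1.05 ± 0.04, and the scanner's processed log ratio ended the last 2 calls. The ligand-binding chain Il6ra was called nowhere, at 0.80 ± 0.41 in the unirradiated metastasis. Il11ra1, the interleukin 11 receptor, rose by 1.79 ± 0.10, 1.21 ± 0.09 and 1.28 ± 0.10, while Il11 itself had 0.13 ± 0.04, 0.11 ± 0.14 and 0.18 ± 0.10. Il27ra rose in the gamma group alone, by 1.93 ± 0.20, and had 0.93 ± 0.15 and 0.56 ± 0.18 in the unirradiated and carbon groups, with its ligand subunit Il27 at -0.28 ± 0.16 in the gamma group.

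Il7r, the interleukin 7 receptor of lymphocytes, had ratios of 0.52 and 0.34 in the gamma primary, 0.56 and 0.51 in the carbon primary, 2.35 and 2.18 in the unirradiated metastasis, 2.31 and 2.13 in the gamma group and 1.76 and 1.56 in the carbon group. Its dimmer second probe gave 0.49, 0.48 and 0.23 in the metastases, so the rise was 2-fold on 1 probe and not on the other. Il7 had 0.09 ± 0.11, -0.04 ± 0.22 and -0.00 ± 0.36 there. The shared partner Il2rg was called nowhere, at 0.41 ± 0.26, 0.59 ± 0.20 and -0.04 ± 0.27. Il21r rose in the gamma group by 1.40 ± 0.48, with orientations of 1.74 and 1.06, and had 0.99 ± 0.01 and 0.48 ± 0.18 in the unirradiated and carbon groups. Il10ra and Il10rb, the chains of the interleukin 10 receptor, rose in all 3 metastases, Il10ra by 1.67 ± 0.04, 1.36 ± 0.05 and 1.31 ± 0.00 and Il10rb by 1.48 ± 0.00, 1.16 ± 0.06 and 1.18 ± 0.03. Il10 itself had -0.10 ± 0.01 in the unirradiated metastasis and -0.29 ± 0.04 in the gamma group and was not measured in the carbon group.

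Il16, a chemoattractant for CD4+ cells, had ratios of 0.05 and -0.06 in the gamma primary, -0.23 and -0.05 in the carbon primary, 2.13 and 2.12 in the unirradiated metastasis, 2.05 and 2.09 in the gamma group and 1.00 and 0.85 in the carbon group. It rose in the first 2 metastases, and its dimmer probe gave 0.47 and 0.94 there. Il4i1 had 0.27 and -0.07 in the gamma primary, 0.14 and -0.00 in the carbon primary, 1.77 and 1.42 in the unirradiated metastasis, 2.81 and 2.39 in the gamma group and 1.78 and 1.47 in the carbon group, with the gamma group above the other metastases on both arrays. The level of Il4i1 in the unirradiated primary was 7.01 to 7.33 on its 4 arrays shared with primaries and 7.24 to 8.31 on its 6 arrays shared with metastases, although the RNA was the same, and Il21r likewise reached 7.98 beside a metastasis and 7.04 beside a primary. Il17d was higher in the unirradiated metastasis alone, by 1.27 ± 0.10. Il22ra2, the soluble decoy for interleukin 22, was above background in the gamma-group metastasis alone, where it was at least 2.24-fold higher than in the unirradiated primary, with measured levels of 7.24 and 5.98. Its other probe gave 0.21.

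**Figure D3:**
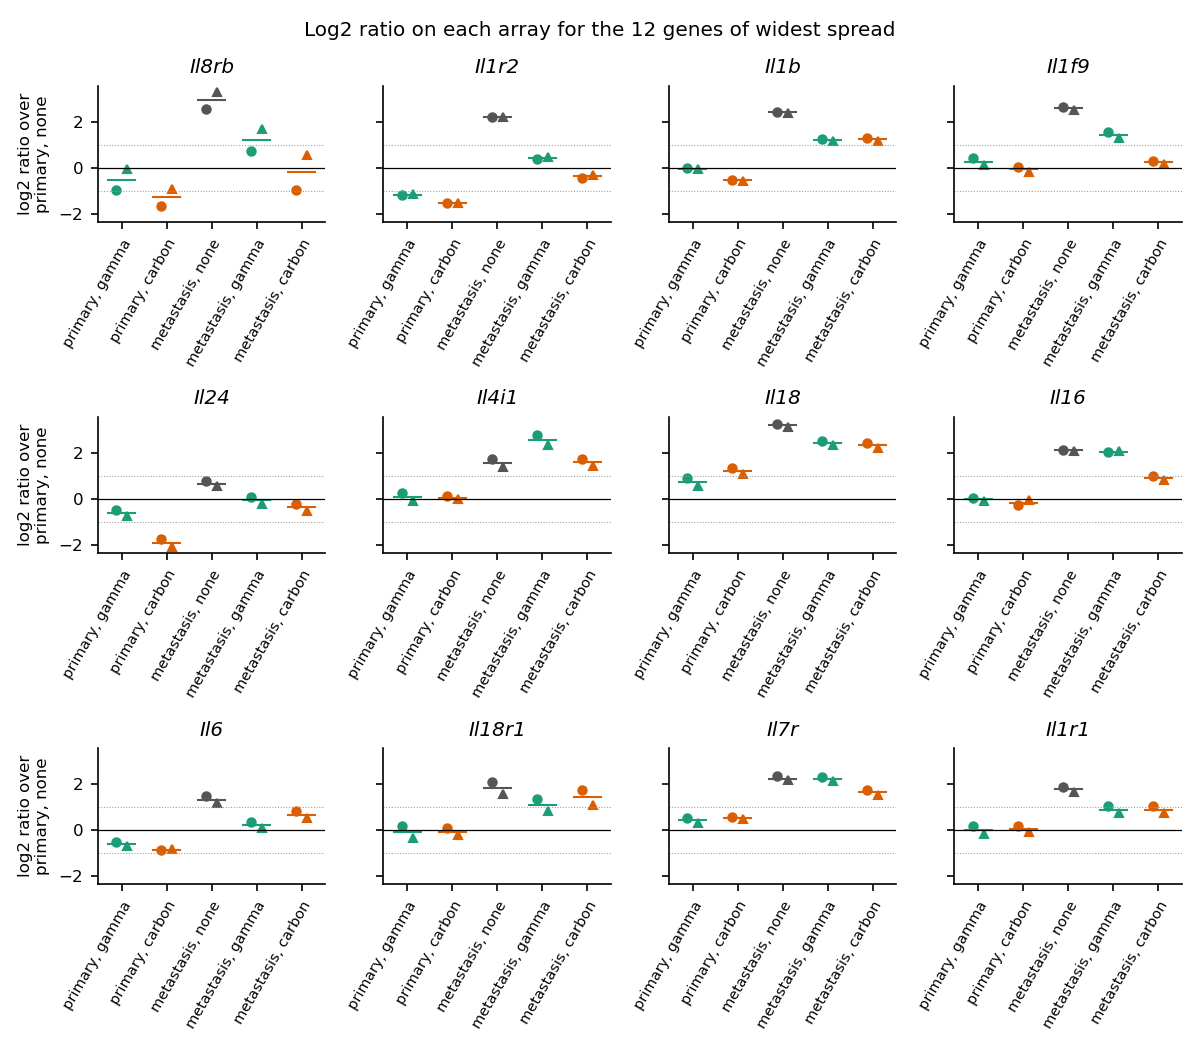
Log2 ratio to the unirradiated primary (vertical axis) on each array for the 12 genes with the widest spread, with circles where the named RNA was in Cy5, triangles where it was in Cy3, a bar at their mean and dotted lines at 2-fold. The points of Il8rb in the carbon-group metastasis were -0.95 and 0.60, and those of Il18r1 there also stand apart, at 1.77 and 1.12.

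Metastases of the irradiated groups were set against the unirradiated metastasis through the shared primary RNA. Arrays of the carbon-group metastasis lay on another slide than those of the other metastases, so slide and group cannot be told apart there. In the gamma group 1 of 53 measured genes was higher and 6 lower, against 1.85% and 1.4% of all measured genes, with a members' median of -0.25 against -0.03. With both RNAs required above background 0 of 48 were higher and 6 lower, against 1.75% and 1.51%. In the carbon group 0 of 49 were higher and 6 lower, against 1.85% and 2.37%, with a median of -0.45 against -0.03. Of those 49 genes 39 lay below 0. The gamma split was 3 and 8 with the scanner's processed log ratio and 0 and 6 with arrays scaled to a common spread, and the carbon split without a background offset was 1 and 8. All measured genes gave 5.87% and 2.87%, 1.25% and 1.5%, and 3.19% and 3.32% in the same order. Dye effects cancel in these differences, so their SDs leave that error out.

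Il8rb, Il1r2, Il1f9, Il1b and Il18bp were lower in both irradiated groups' metastases than in the unirradiated one. Il8rb fell by 1.72 ± 0.17 in the gamma group and by 3.13 ± 0.59 in the carbon group. Il1r2 fell by 1.79 ± 0.03 and by 2.59 ± 0.10, Il1f9 by 1.17 ± 0.11 and by 2.35 ± 0.01, Il1b by 1.22 ± 0.03 and by 1.17 ± 0.04, and Il18bp by 1.20 ± 0.02 and by 1.14 ± 0.06. Il6 fell in the gamma group alone, by 1.10 ± 0.03, and Il16 in the carbon group alone, by 1.20 ± 0.10. Second probes in the gamma and carbon groups gave -1.25 and -1.72 for Il8rb and -1.82 and -2.45 for Il1r2. They gave -0.55 and -1.02 for Il1f9, -1.06 and -0.91 for Il18bp, and -0.27 for Il16 in the carbon group. Averaging the probes ended the calls of Il1f9 and Il22ra2 in the gamma group and of Il18bp and Il16 in the carbon group. Il22ra2 was called higher in the gamma group, against an RNA where it was not well above background, so no value is given. The interferon-response markers moved beside Il18bp: 6 of 14 were lower in the gamma group (median -0.77) and 4 of 14 in the carbon group (median -0.50). Their summed signal was 117000 to 120000 in the unirradiated metastasis, 53300 to 54100 in the gamma group and 58900 to 59900 in the carbon group. The neutrophil markers fell in the same samples, 6 of 8 in the gamma group (median -1.88) and 7 of 8 in the carbon group (median -3.47), while Ltf rose by 1.25 and by 2.07. Their summed signal was 410000 to 752000 in the unirradiated metastasis, 218000 to 355000 in the gamma group, 67600 to 78500 in the carbon group and 9600 to 35800 in the unirradiated primary. The part of both lists in these results was not tested.

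Between the irradiated groups' metastases, 0 of 53 measured genes were higher in the carbon group and 5 lower, against 0.249% and 1.06% of all measured genes, with medians of -0.09 and 0.00. Il8rb fell by 1.41 ± 0.42, Il27ra by 1.37 ± 0.02, Il1f9 by 1.18 ± 0.12 and Il16 by 1.15 ± 0.14. The other call was Il22ra2, which was not well above background in the carbon group, so no value is given. With both RNAs required above background 0 of 47 were higher and 4 lower, against 0.253% and 0.98%. Averaging the probes of each gene left 1 of the 5 calls, and scaling the arrays left 2. Over all genes the calls went from 226 to 183 and to 151. The other probes gave -0.48 for Il8rb, -0.46 for Il1f9 and -0.74 for Il16. Il4i1 had -0.98 ± 0.08 and Il21r -0.92 ± 0.66 and were not called. The B cell markers moved beside these genes: 6 of 7 were lower in the carbon group (median -1.86), and 5 of 7 were higher in the gamma group than in the unirradiated metastasis (median 1.66). Their summed signal was 28700 to 30000 in the gamma group, 9200 to 9320 in the carbon group, 13200 to 13300 in the unirradiated metastasis and 5470 to 6070 in the unirradiated primary, with Cd79a above background in neither unirradiated RNA. The neutrophil markers were lower in the carbon group in 4 of 8 (median -1.15). The part of both lists in the result was not tested.

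**Figure D4:**
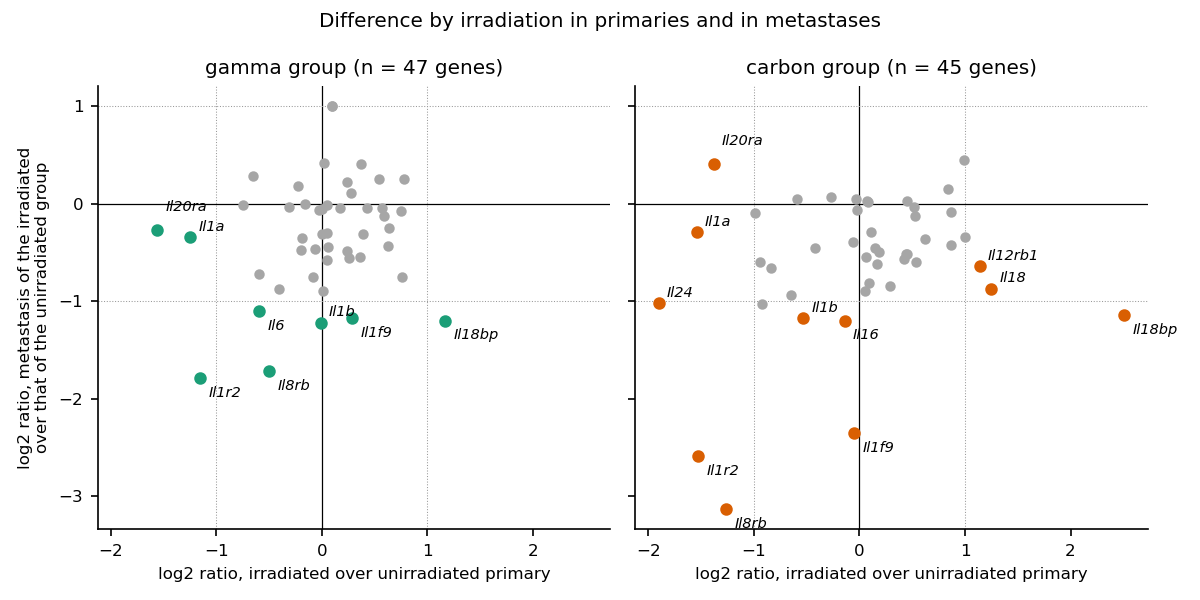
Mean log2 ratio of irradiated over unirradiated for primaries (horizontal axis) and for metastases (vertical axis), gamma rays on the left (47 genes) and carbon ions on the right (45 genes), with coloured and named points for genes called on either axis, grey points for the rest and dotted lines at 2-fold. Il18bp lies to the right and below in both panels, at 1.17 and -1.20 for gamma rays and at 2.51 and -1.14 for carbon ions, and Il1r2 lies to the left and below.

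Il1r2 and Il18bp were called after both beams in primaries and in metastases. Il1r2 fell by 1.15 in primaries and by 1.79 in metastases after gamma rays, and by 1.53 and by 2.59 after carbon ions. Il18bp rose in the irradiated primaries and fell in the metastases of the irradiated groups. Its dimmer probe was under 2-fold in the gamma primary (0.84) and in the carbon group against the unirradiated metastasis (-0.91). The metastases were not themselves said to have been irradiated, and the difference between the effects was not tested.

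Of 45 genes listed, 39 were on the array. They take part in signalling downstream of these receptors, or are receptor chains and ligands of the same systems whose names do not begin with Il. In the gamma primary 2 of 38 measured rose, in the carbon primary 6 of 39, in the unirradiated metastasis 9 of 39, in the gamma group 8 and in the carbon group 6, with none lower in any of them. The shares of all measured genes that were higher were 2.22%, 3.88%, 10.4%, 8.8% and 8.19% in the same order. The chains and ligands made up 0, 1, 3, 3 and 2 of the rises, again in that order, with 6 measured in each. Stat2, a factor of the interferon receptors, rose in all 5 RNAs, by 1.24 in the gamma primary and by 2.55 in the carbon primary. Stat4, which acts below the interleukin 12 receptor, rose in the 3 metastases, by 1.26, 1.71 and 1.25. Of 7 feedback inhibitors, Cish rose in the carbon primary and all 3 metastases, by 1.64 and by 2.07 to 2.63, and Socs1 rose by 1.22 in the carbon primary and by 1.76 and 1.17 in the unirradiated and gamma-group metastases. None of the 12 genes of the MyD88 and NF-kB branch was called in any comparison, and their median lay between -0.09 and 0.29. Csf2rb1 and Csf2rb2, beta chains of the interleukin 3 receptor, rose by 2.34 and 2.28 in the unirradiated metastasis, where the binding chain Il3ra had 0.34 ± 0.14. Casp1, which cuts the precursors of interleukins 1 beta and 18, rose by 1.40 in the carbon primary alone. Between metastases, Casp4 and Ebi3, the partner of Il27, fell by 1.22 and by 1.13 in the carbon group.

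Of the 10 squamous epithelium markers none was called in any comparison, and their summed signal was 548000 to 948000 over the 6 RNAs, with at least 9 of the 10 above background on every array of each RNA. Markers of other cells differed between lung and leg. In the unirradiated metastasis 8 of 8 neutrophil markers (median 4.39), 9 of 9 macrophage markers (1.93), 8 of 12 T and NK markers (2.02), 3 of 6 B cell markers (1.32), 7 of 8 endothelial markers (2.07) and 8 of 9 lung epithelium markers (4.44) were higher. The lung epithelium markers were higher in 8 of 9 in the other metastases too, with summed signals of 527000 to 1000000 there and 2660 to 3310 in the irradiated primaries, where Sftpa1, Sftpb, Sftpc and Scgb3a2 were not above background. In the unirradiated primary their sum was 3040 to 3550 on arrays shared with primaries and 10400 to 48400 on arrays shared with metastases, for the same RNA. The macrophage sums were 76000 to 82500 in the unirradiated metastasis, 39200 to 46400 in the other metastases and 10200 to 13700 in primaries, and macrophage markers fell in 4 of 9 and 3 of 9 in the gamma and carbon groups against the unirradiated metastasis. The part of these cells in the members' differences between metastasis and primary was not tested.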

How the data were processed

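Per the file headers, the scanner software was Agilent Feature Extraction 9.1.3.1 with protocol GE2-v5_91_0806, run on array design 014868. Deposited intensity columns hold mean spot signals and median local backgrounds per channel, not normalised. The deposited log10 ratio is Cy5 over Cy3 after the scanner software's own background and dye correction, and the authors' series values were equal to it within 0.005. What else was done upstream is not given in the sources used here.

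Ratios were recomputed with limma 3.58.1 under R 4.3.3: normexp background correction with an offset of 50, which pulls dim ratios toward 0, then loess within each array with control spots at weight 0 and outlier spots left out. Spots of a probe were averaged, the brightest probe stood for its gene, and the sign was turned by the dyes in the labels. Channel levels were scaled between arrays with limma's Aquantile. The 43379 non-control spots per array held 16 to 58 outliers and no saturated spot, 53.8% to 68.8% were well above background, and the number of arrays limits the precision. Later steps used Python 3.11.15, numpy 2.4.6 and pandas 2.3.3. The calling step was tested on simulated dye swaps.

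Of 9 comparisons 6 were direct and 3 ran through the unirradiated primary. Values on every array are given for the 12 members with the widest range over the 5 direct comparisons with that primary. Other members were named where called, or where they were the partner chain or ligand of a named gene. Some that lay close to the 2-fold line were named too. The members, lists and rules were chosen with earlier results of these data known, and Il7r's promoter was picked after its match was seen. Promoter windows stop at the start site. The build behind the array's probes is not given in the sources used here. The 3 slides held 4 arrays each, with both arrays of any dye swap on one slide, so slide could not be fitted as a block. Slide 1 held the unirradiated and gamma-group metastases, and slide 2 the carbon-group metastasis and the gamma primary. Slide 3 held the carbon primary and its direct comparison with the gamma primary. Slide and group thus cannot be told apart between the carbon-group metastasis and the others, or between the separate ratios of the irradiated primaries.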

Additional observations from a re-analysis of the deposited data

Results flagged for a closer look

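Il18bp differed in the direction of its radiation difference between primaries and metastases. It was higher in the irradiated primaries and lower in the metastases of the irradiated groups than in the respective unirradiated RNA, in both dye orientations. The effect in the primary exceeded that in the metastasis by 2.37 for gamma rays and by 3.65 for carbon ions on the log2 scale. This difference was not tested. Beside it, 14 of 14 interferon-response markers were higher in both irradiated primaries, and 6 of 14 in the gamma group and 4 of 14 in the carbon group were lower than in the unirradiated metastasis. Their part was not tested.

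Among the 25 called members, 75 sets of 4 or 10 hybridisations of the same RNA were searched for a hybridisation far from the rest, and 7 were found. Chance gives about 1 in 20 where all repeats are alike, but the sets mixed both dyes, so that rate is only a rough guide. Every lowest level found was in Cy3 and every highest in Cy5. They are technical repeats, and most gaps were small. Il21r reached 7.98 in the unirradiated primary on an array shared with the gamma-group metastasis, with the next level at 7.04. In the gamma primary Il10ra had a lowest level of 8.92 (next 9.01), Il4i1 of 7.27 (next 7.38) and Il6 of 6.50 (next 6.60). In the carbon primary Il10rb had a lowest level of 11.59 (next 11.63), Il1f9 a lowest of 6.23 (next 6.44) and Il24 a highest of 8.54 (next 8.32).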

How the results depend on the processing

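No gene's called value turned its sign in any of 11 alternatives. Several of these could not turn a sign, because they reuse the main ratios. They are the 1.5-fold call, the changed filters on dim probes, and each orientation alone. Of these, only the filter that required both RNAs above background could lose a call, by leaving a gene unmeasured. It took the calls from 16 to 15 in the gamma-group metastasis and from 7 to 6 in that group against the unirradiated metastasis. In carbon against gamma metastases it took them from 5 to 4. The authors' table repeats the scanner's processed log ratio. Of 79 called values, 32 kept their call throughout and 52 kept it in all but median centring, which lost 36 calls; in 29 of these the mean stayed past 2-fold and only 1 orientation fell short.

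Counts of called members that moved by over 1.5 times were as follows. With the scanner's processed log ratio, and equally with the authors' table, they were 8 in the gamma primary (from 4), 17 in the carbon primary (from 7), 11 and 13 in the gamma and carbon groups against the unirradiated metastasis (from 7 and 6), and 8 in carbon against gamma metastases (from 5). Without a background offset the carbon primary had 16. A 1.5-fold call gave 8, 19 and 6 in the primary comparisons and 14, 16 and 11 among metastases. Median centring gave 1 in the gamma primary, 0 in carbon against gamma primaries (from 3), 12, 8 and 3 in the unirradiated, gamma and carbon metastases (from 19, 16 and 12) and 3 in carbon against gamma metastases. The mean of all probes gave 10 in the gamma-group metastasis and 1 in carbon against gamma metastases, where scaling between arrays gave 2. That mean takes in dim probes, such as the second probe of Il10rb, which could be measured in no comparison. A call it ends is thus not always a disagreement between measured probes. With the first RNA in Cy5 alone the counts were 12 in the carbon primary and 8 in carbon against gamma metastases. Calls over all genes moved under the same settings. The scanner's processed log ratio took them from 544 to 1027 in the gamma primary and from 780 to 1399 in the carbon primary. Median centring took them from 157 to 73 in carbon against gamma primaries and from 2080 to 1485 in the unirradiated metastasis. The cause was not tested.

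Slide as a block was not run, since each dye swap lay on 1 slide. No paired analysis was possible because every label carries the same replicate number and there was 1 RNA per group. Signal over background limits the 24 members measured in no comparison.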
